A study of Drosophila melanogaster with 12 samples.

Results

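Jheh2 (CG15102), which encodes a juvenile hormone epoxide hydrolase, and Jhbp13 (CG5945) and Jhbp14 (CG5867), which belong to a family of juvenile hormone binding proteins, were followed in heads of adult male flies after pentylenetetrazole and ethosuximide. Every probe whose only annotated gene carries 1 of these 3 current symbols was taken, which gave 5 probes for 3 genes: 2 for Jheh2, 1 for Jhbp13 and 2 for Jhbp14. The arrays named 6793 genes in all through 7558 probes with 1 gene. The 3 genes were chosen by their measured day-10 ratios in an earlier analysis of the same arrays, so every day-10 value of theirs below is a description with no test. The day-14 arrays are other samples, and they were tested.

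Juvenile hormone is a sesquiterpenoid made by the corpora allata, a gland behind the insect brain, and in adult insects it acts on reproduction, metabolism and behaviour. It is broken down by esterases and by epoxide hydrolases, which open its epoxide ring to a diol. In moths, juvenile hormone binding proteins carry the hormone in the haemolymph. The Jhbp genes of the fly were named for their likeness to those proteins and to takeout, and whether each product binds the hormone is not given in the sources used here.

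Unmated Oregon R wild type males, 3 to 4 days old at the start, were fed the convulsant pentylenetetrazole (PTZ) at 8 mg/ml for 7 days, per the series' design text. The PTZ-ETH group then had 3.48 mg/ml ethosuximide (ETH), an antiepileptic drug, for 3 days and was harvested on day 10. The PTZ-ETH-NF arm had the same 3 days of ETH followed by 4 days of normal food (NF) and was harvested on day 14. The PTZ-NF-NF arm went from PTZ to normal food for 7 days, also to day 14. Untreated flies stayed on normal food for the same 10 or 14 days. Each group had 4 arrays, and each array compared a pool of treated heads with a pool of untreated heads of a parallel set. A value is therefore a mean over many heads of all their tissues, so fewer cells of a type and less RNA per cell cannot be told apart. Sharing of untreated pools between groups is not stated in the sources used here.

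Ratios are log2 of treated over untreated with each array's median probe at 0, so 1 is a doubling. Cy5 labelled the treated RNA on replicates 1 and 2 of every group. Replicates 3 and 4 were dye swaps, and their sign was turned here. That Cy5 stands over Cy3 in each deposited value is an assumption, since no source used here states the numerator on dye swaps. After turning, day-10 arrays of opposite orientation correlated across probes at -0.48 to -0.38, and those of the same orientation at 0.43 to 0.55. With each print block centred, the former ran from -0.37 to -0.17. In the PTZ-ETH-NF arm arrays of opposite orientation correlated at -0.33 to 0.041 and those of the same orientation at 0.13 to 0.41. In the PTZ-NF-NF arm these were -0.28 to 0.23 and 0.33 to 0.60. Probes are not independent in these correlations. The SD over probes ran from 0.46 to 0.58 log2 in the PTZ-ETH group, from 0.27 to 0.39 in the PTZ-ETH-NF arm and from 0.27 to 0.29 in the PTZ-NF-NF arm. Ratios, unlike signals, hold no level, so the labelled tissue could not be checked against the level of its markers.

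Jheh2 was higher in treated than in untreated heads on every day-10 array, by both of its probes. The first probe stood at 0.43, 1.11, 0.71 and 0.87 log2 on replicates 1 to 4 of the PTZ-ETH group, a mean of 0.78 ± 0.29 (SD, n = 4), which is 1.72-fold. The second probe stood at 0.44, 0.87, 1.03 and 1.40 there, a mean of 0.94 ± 0.39 (SD, n = 4), or 1.91-fold. Both orientations of the dyes gave higher treated RNA. Of all 9479 probes tested at day 10, 5.75% were above 0 on every array and 5.31% below; nothing is read from these shares for genes that these arrays chose. On replicate 1 the 2 spots of a probe disagreed, by 0.82 log2 for the first probe and 0.81 for the second, against a median spot difference of 0.20 over all probes of the day-10 arrays.

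At day 14 that higher ratio was not seen in either arm. In the PTZ-ETH-NF arm the first Jheh2 probe stood at -0.0175, -0.059, -0.47 and -0.60 log2, a mean of -0.29 ± 0.29 (SD, n = 4), and the second at 0.016, -0.14, 0.12 and -0.0643, a mean of -0.0169 ± 0.11 (SD, n = 4). In the PTZ-NF-NF arm the first probe stood at -0.26, 0.34, -0.84 and -0.59, a mean of -0.34 ± 0.51 (SD, n = 4), and the second at -0.24, -0.018, -0.39 and -0.38, a mean of -0.26 ± 0.17 (SD, n = 4). The highest day-14 value of either probe, 0.34, lay below the lowest day-10 value, 0.43, so the day-10 and day-14 arrays did not overlap. The day-10 ratios chose this gene, and the share of all probes parted in this way was not counted, so nothing is read from the gap. With each print block centred the first probe did overlap, since replicate 2 of the PTZ-NF-NF arm stood at 0.46 and the lowest day-10 array at 0.42; the second did not.

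**Figure D1:**
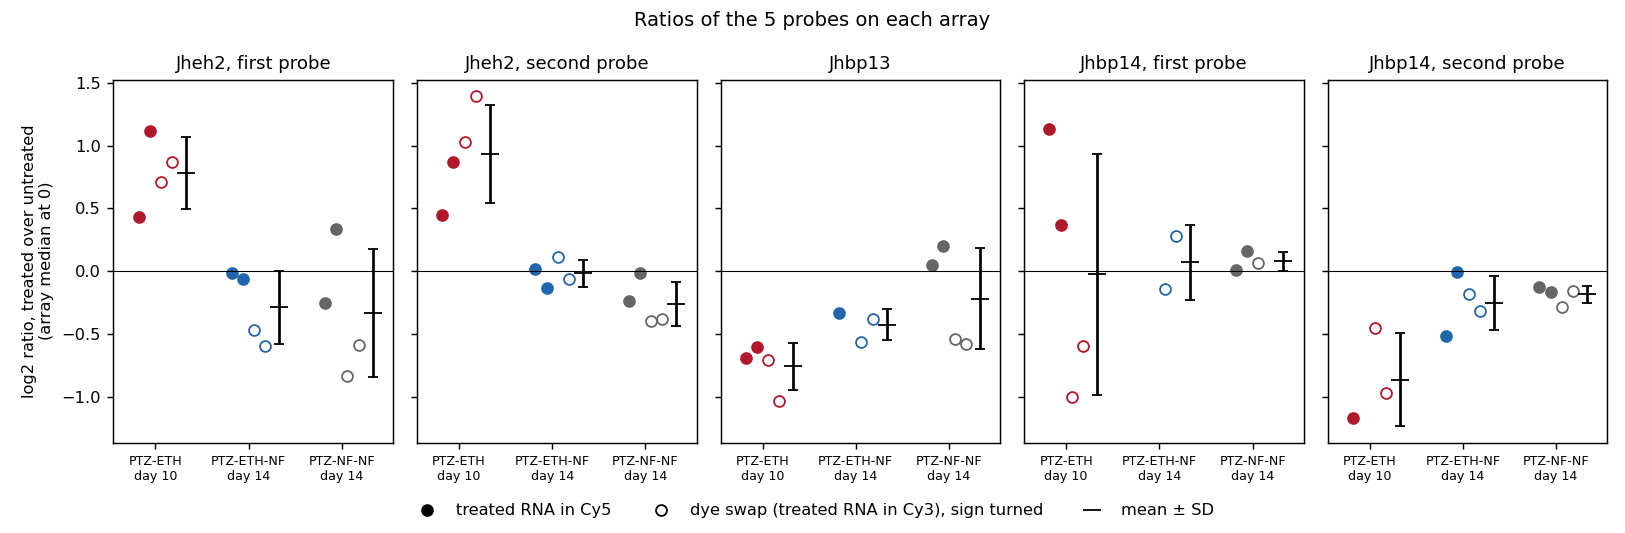
Log2 ratio of treated over untreated heads for each of the 5 probes on each array, by group (PTZ-ETH at day 10, PTZ-ETH-NF at day 14, PTZ-NF-NF at day 14; NF is normal food). Filled points had the treated RNA in Cy5, open points are dye swaps with the sign turned, and black bars give the mean ± SD over arrays with a value. Both Jheh2 probes lie above 0 at day 10 and mostly below at day 14, and the second Jhbp14 probe lies below 0 on all 11 arrays with a value.

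Jhbp13 was lower in treated heads on all 4 day-10 arrays and on all 3 arrays of the PTZ-ETH-NF arm that measured it. Its ratios were -0.69, -0.61, -0.71 and -1.04 log2 on replicates 1 to 4 of the PTZ-ETH group, a mean of -0.76 ± 0.19 (SD, n = 4), which is 0.590-fold. In the PTZ-ETH-NF arm they were -0.33, -0.56 and -0.38 on replicates 1, 3 and 4, a mean of -0.43 ± 0.12 (SD, n = 3). The day-10 and PTZ-ETH-NF values did not overlap, though the nearest, -0.61 at day 10 and -0.56 at day 14, were close. With each print block centred they overlapped, with day-10 replicate 3 at -0.28 and the PTZ-ETH-NF values between -0.47 and -0.24. Since the day-10 ratios chose this gene and no share over all probes was counted, nothing is read from the gap. In the PTZ-NF-NF arm Jhbp13 split by dye orientation, at 0.0515 and 0.20 with the treated RNA in Cy5 and -0.54 and -0.58 on the dye swaps, with a mean of -0.22 ± 0.40 (SD, n = 4).

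The 2 probes of Jhbp14 did not give the same picture. The second probe was lower in treated heads on all 11 arrays that measured it. It stood at -1.17, -0.46 and -0.98 log2 on replicates 1, 3 and 4 of the PTZ-ETH group, a mean of -0.87 ± 0.37 (SD, n = 3), or 0.548-fold. In the PTZ-ETH-NF arm it stood at -0.51, -0.0075, -0.18 and -0.32, a mean of -0.26 ± 0.21 (SD, n = 4), and in the PTZ-NF-NF arm at -0.12, -0.17, -0.28 and -0.16, a mean of -0.19 ± 0.0690 (SD, n = 4). Of 3572 probes with at least 11 values, 0.28% were below 0 on every array; since the day-10 arrays chose this gene, nothing is read from that share. The day-10 values overlapped those of the PTZ-ETH-NF arm, whose lowest was -0.51, and lay below all those of the PTZ-NF-NF arm. Nothing is read from that order either.

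The first Jhbp14 probe had no common sign at day 10. It stood at 1.13, 0.36, -1.0025 and -0.60 log2 on replicates 1 to 4, a mean of -0.0258 ± 0.96 (SD, n = 4). Its 2 values in the PTZ-ETH-NF arm were -0.14 and 0.28, on replicates 3 and 4, too few for a test, and in the PTZ-NF-NF arm it stood at 0.0125, 0.16 and 0.0665 on replicates 1 to 3, a mean of 0.0793 ± 0.0741 (SD, n = 3).

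Before the dye swaps were turned, the first Jhbp14 probe was positive on all 4 day-10 arrays, whichever dye held the treated RNA. Split into a part that follows the treatment and a part that follows the dye, its day-10 ratio was -0.0258 and 0.77 log2. For the first Jheh2 probe these parts were 0.78 and -0.00975, for the second 0.94 and -0.28, for Jhbp13 -0.76 and 0.11, and for the second Jhbp14 probe -0.94 and -0.23. So 4 of the 5 probes had 1 sign on every day-10 array only with the dye swaps turned, and 1 only without. Over all 9479 probes tested at day 10, 11.1% had 1 sign on every array with the dye swaps turned and 44.3% without. Since the day-10 ratios chose these genes, nothing is read from the count of 4 of the 5 probes.

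Ratios also followed position on the slide, which was printed in 48 blocks. The print block of the first Jhbp14 probe had a median of 0.43, 0.29, 0.51 and 0.50 log2 on the 4 day-10 arrays before turning, beside the probe's own 1.13, 0.36, 1.0025 and 0.60. The block of Jhbp13 had medians of 0.56, 0.45, 0.42 and 0.41, while the probe itself was at -0.69 and -0.61 with treated RNA in Cy5 and at 0.71 and 1.04 on the dye swaps. The block of the second Jheh2 probe had medians of -0.46, -0.44, -0.27 and -0.51, beside ratios of 0.44, 0.87, -1.03 and -1.40. With each print block centred, the day-10 means were 0.67 ± 0.46 and 0.97 ± 0.24 for the Jheh2 probes (SD, n = 4 each), -0.80 ± 0.43 for Jhbp13 (SD, n = 4), 0.0467 ± 0.50 for the first Jhbp14 probe (SD, n = 4) and -0.68 ± 0.88 for the second (SD, n = 3). The second Jhbp14 probe was then above 0 on 1 array, replicate 3, at 0.15, and so overlapped both day-14 arms.

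**Figure D2:**
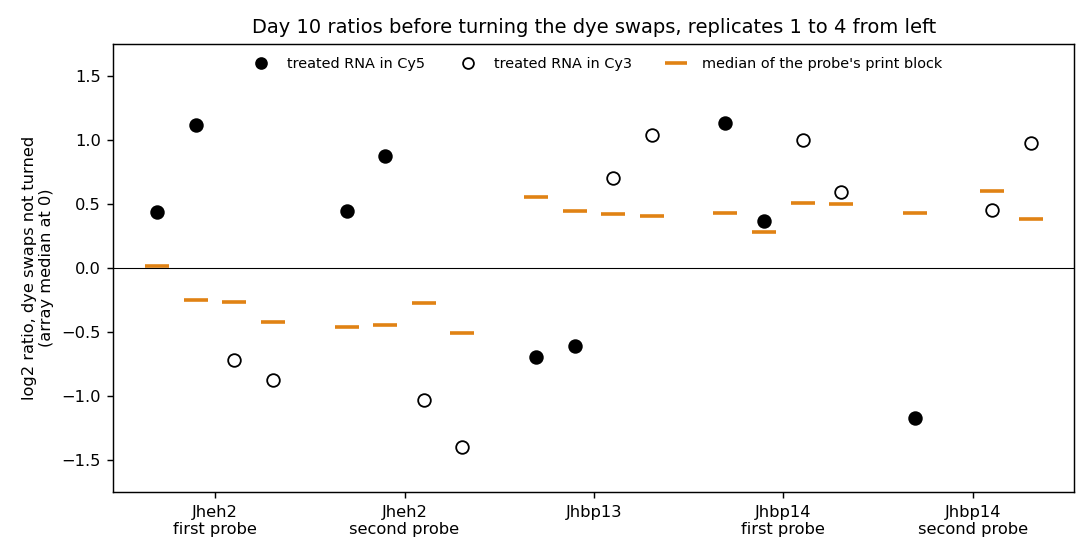
Day-10 log2 ratios of the 5 probes before the dye swaps were turned, replicates 1 to 4 from left within a probe, with the array median at 0. Filled points had the treated RNA in Cy5, open points in Cy3, and orange bars mark the median of the probe's print block on that array. Jheh2, Jhbp13 and the second Jhbp14 probe change side with the dye; the first Jhbp14 probe stays between 0.36 and 1.13, on the same side as its block.

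The 2 probes of a gene were compared on the arrays that measured both. For Jheh2 the first minus the second was -0.17 ± 0.32 log2 (SD, n = 12), from -0.58 to 0.36, and both had the same sign on 9 of 12 arrays, which include all 4 at day 10. On the 8 day-14 arrays alone the difference was -0.17 ± 0.33 (SD, n = 8). It did not pass (exact 2-sided sign-flip permutation test, p = 0.164, adjusted p = 0.164 over the 2 genes). That test had no dye term, and the gap between the probes followed the dye. On the dye swaps the first and second probe averaged -0.53 and 0.026 in the PTZ-ETH-NF arm, and -0.71 and -0.39 in the PTZ-NF-NF arm. With the treated RNA in Cy5 they averaged -0.038 and -0.06, and 0.042 and -0.13, in the same order. For Jhbp14 the first probe was the higher on 7 of 8 arrays, by 0.45 ± 0.82 (SD, n = 8), and the 2 had the same sign on 3. Their gap was widest on replicate 1 of day 10, at 2.30. On the 5 day-14 arrays with both values the first Jhbp14 probe was higher on all 5, by 0.29 ± 0.21 (SD, n = 5; exact 2-sided sign-flip permutation test, p = 0.0625, the smallest that 5 arrays allow, adjusted p = 0.125).

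**Figure D3:**
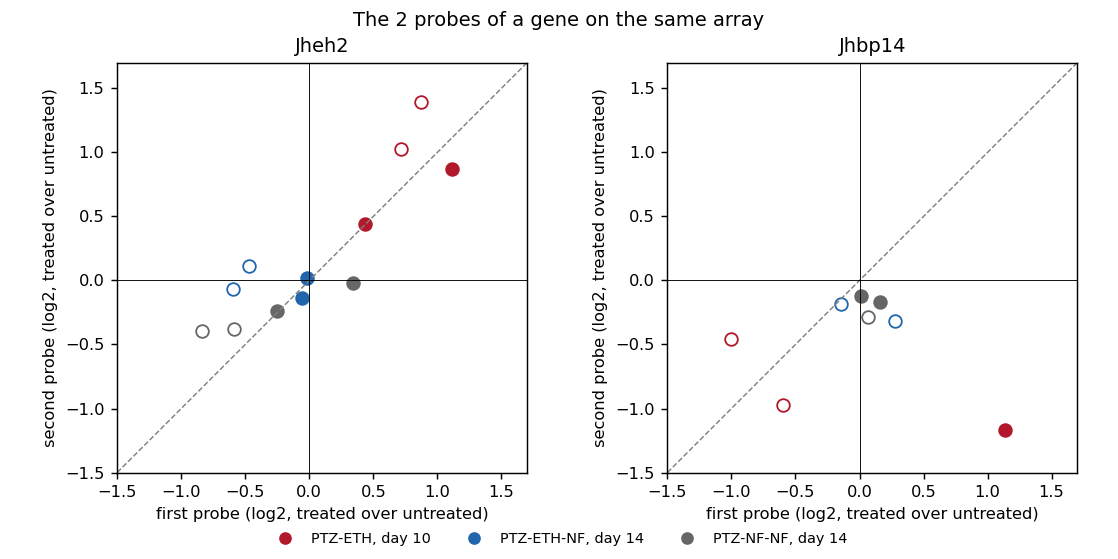
Log2 ratio of treated over untreated heads by the first probe (horizontal) and the second probe (vertical) of Jheh2 and of Jhbp14, 1 point per array with both values (12 for Jheh2, 8 for Jhbp14). Filled points had the treated RNA in Cy5, open points are dye swaps with the sign turned, and the dashed line marks equal ratios. The Jheh2 points run along the line; of the Jhbp14 points 7 of 8 lie below it.

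After ETH and then 4 days of normal food, no probe of the 3 genes passed the test. limma called 0 of 5135 probes tested in this arm (0% higher and 0% lower), and 11.3% had an unadjusted p under 0.05. Jhbp13 was estimated, with the dye term and 1 array missing, at -0.35 log2 against its plain mean of -0.43 (SE 0.11, 95% interval -0.60 to -0.0991, n = 3, limma adjusted p = 0.331), below 0 on all 3 of its arrays. The first Jheh2 probe was at -0.29 (SE 0.10, limma adjusted p = 0.345) and below 0 on 4 of 4 arrays. It split by dye, with a mean of -0.038 with the treated RNA in Cy5 and -0.53 on the dye swaps. Without the dye term its SE was 0.17 (limma adjusted p = 0.762). The second Jheh2 probe was at -0.0169 (interval -0.21 to 0.17, limma adjusted p = 0.962) and below 0 on 2 of 4. The second Jhbp14 probe was at -0.26 (SE 0.0925, limma adjusted p = 0.346), below 0 on 4 of 4; it was at -0.15 without replicate 1 of this arm, and at -0.39 and -0.13 by its first and second spot alone. Over all probes tested 8.7% were below 0 on every array. Jhbp13, the first Jheh2 probe and the second Jhbp14 probe, 3 of the 4 probes tested, had an unadjusted p under 0.05 on the lower side, where 5.08% of all probes did. With dye swaps not turned, Jhbp13 stood at 0.11 and the first Jheh2 probe at 0.25, in the opposite direction and not past the threshold, and the second Jhbp14 probe at -0.00494.

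In the arm that went straight from PTZ to normal food, none of the 5 probes passed either. There limma called 0.125% of 6386 probes higher and 0.517% lower, 41 in all, and 20 with the replicate number as a block, 19 of them shared; 15.6% had an unadjusted p under 0.05. That count fell to 0 to 2 without replicate 1, 3 or 4 of this arm, and was 62, 21 and 1 without replicates 1, 3 and 4 of the PTZ-ETH-NF arm, whose arrays share the fit. The first Jheh2 probe was at -0.34 log2 (SE 0.10, 95% interval -0.55 to -0.12, n = 4, limma adjusted p = 0.125), or 0.793-fold, and below 0 on 3 of 4 arrays. The second was at -0.26 (SE 0.0930, interval -0.45 to -0.0639, n = 4, limma adjusted p = 0.198) and below 0 on 4 of 4, as were 12.7% of all probes on every array they had. The first Jheh2 probe split by dye here too, with a mean of 0.042 with the treated RNA in Cy5 and -0.71 on the dye swaps. The second averaged -0.13 and -0.39 in the same order. Without the dye term the first had an SE of 0.16 (limma adjusted p = 0.541). Jhbp13 was at -0.22 (SE 0.0982, limma adjusted p = 0.294) and below 0 on 2 of 4. The Jhbp14 probes were at 0.0761 (SE 0.12, limma adjusted p = 0.783) and -0.19 (SE 0.0956, limma adjusted p = 0.356). On the lower side 3 of the 5 probes had an unadjusted p under 0.05, 2 of them for Jheh2, against 9.97% of all probes. Without replicate 2 of this arm, the 1 array on which it was positive, the first Jheh2 probe was at -0.48 and passed (limma adjusted p = 0.0464). With dye swaps not turned it passed in the opposite direction, at 0.38 (limma adjusted p = 0.0466), so its direction at day 14 rests on the reading of the dye swaps.

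The arms with and without ETH were then compared at day 14, and no difference of these genes passed (0 of 4766 probes, 0% in either direction; 5.01% had an unadjusted p under 0.05). The PTZ-ETH-NF arm minus the PTZ-NF-NF arm was 0.0491 log2 for the first Jheh2 probe (95% interval -0.26 to 0.36, n = 4 against 4, limma adjusted p = 0.981) and 0.24 for the second (interval -0.0273 to 0.51, n = 4 against 4, limma adjusted p = 0.911). It was -0.13 for Jhbp13 (interval -0.45 to 0.19, n = 3 against 4, limma adjusted p = 0.942) and -0.0704 for the second Jhbp14 probe (interval -0.35 to 0.21, n = 4 against 4, limma adjusted p = 0.960). The Jhbp13 difference was -0.0686 without replicate 2 of the PTZ-NF-NF arm and also with the replicate block, -0.0398 after print-block centring, and -0.24 if dye swaps were left unturned. The intervals reach 0.51 log2 for Jheh2 and -0.45 for Jhbp13, so they do not show that the arms were alike. The sign of the first Jheh2 difference also turned when 1 array was left out: -0.00245 without replicate 3 of the PTZ-ETH-NF arm, and -0.0441 and -0.0274 without replicates 1 and 3 of the PTZ-NF-NF arm. That of the second Jhbp14 probe turned to 0.0394 without replicate 1 of the PTZ-ETH-NF arm.

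**Figure D4:**
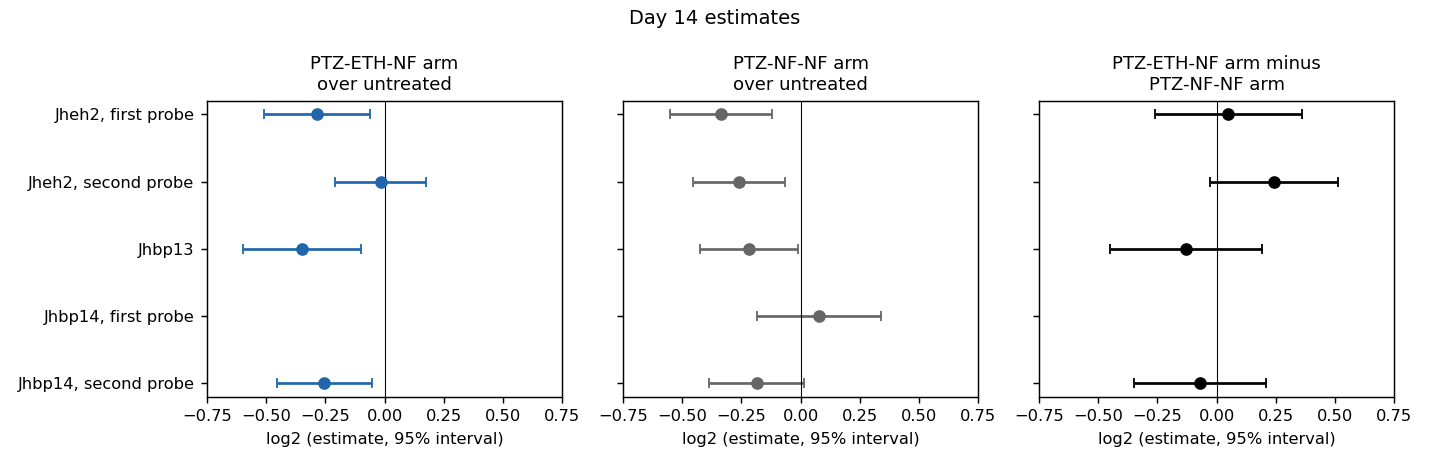
Estimated log2 ratios with 95% intervals, not adjusted for the number of probes, from limma for the 5 probes at day 14: the PTZ-ETH-NF arm over untreated, the PTZ-NF-NF arm over untreated, and the first arm minus the second. The first Jhbp14 probe had too few values for the panels that use the PTZ-ETH-NF arm. The estimates over untreated lie between -0.35 and 0.0761, and every interval of the difference includes 0.

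The rest of the juvenile hormone genes were measured in part. Of 40 other listed genes of breakdown, binding, synthesis, reception and response, 19 had a probe, and 15 were tested at day 10, 7 in the PTZ-ETH-NF arm and 9 in the PTZ-NF-NF arm. None passed in any of these, on 17, 8 and 10 probes, and 0, 0 and 3 probes had an unadjusted p under 0.05. Not passing at day 10 says little, because changes of 1 log2 added to simulated arrays of the day-10 spread did not pass either. At day 10, where the 4 arrays called 0.0105% of probes higher and 0% lower and 6.31% had an unadjusted p under 0.05, 9 probes of the list were above 0 and 8 below, with a median of 0.0161 against 0.0183 over all probes. In the PTZ-ETH-NF arm 4 were above and 4 below (median 0.0153, against 0.000688 over all probes), and in the PTZ-NF-NF arm 2 above and 8 below (median -0.0568, against -0.0080).

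Of the genes that break the hormone down, the neighbours Jheh1 and Jheh3, which lie next to Jheh2 on either side in the RefSeq annotation (Release 6 plus ISO1 MT), and the esterase gene Jhe had no probe named here. Jhedup, a gene similar to Jhe, was at 0.22 log2 at day 10 (SE 0.19, n = 4, limma adjusted p = 0.855) and had no day-14 value. In the binding family, Jhbp13 and Jhbp14 are next to each other in that annotation. Of 15 other listed members 6 had a probe and 3 were tested at day 10: Jhbp1 at -0.26 (SE 0.18, n = 3, limma adjusted p = 0.852), Jhbp5 at 0.16 (SE 0.18, n = 3, limma adjusted p = 0.895) and Jhbp6 at -0.22 (SE 0.31, n = 3, limma adjusted p = 0.908). Each of these 3 had values on both sides of 0; Jhbp6 ran from -1.29 to 1.66, and its fit had 1 residual degree of freedom. With replicates missing, the dye term sets these estimates apart from the plain means, which were 0.14 for Jhbp6, of the opposite sign, and -0.0727 for Jhbp1. At day 14 Jhbp1 was at 0.0628 in the PTZ-ETH-NF arm (SE 0.11, n = 3) and at -0.00412 in the PTZ-NF-NF arm (SE 0.0936, n = 4), and Jhbp2, tested in the PTZ-NF-NF arm only, at -0.0767 (SE 0.0989, n = 4).

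Among genes of synthesis, Mvd and Fpps had the highest ratios in the PTZ-NF-NF arm, without passing. Mvd, which encodes mevalonate diphosphate decarboxylase, was at 0.39 log2 there (SE 0.0969, n = 4, limma adjusted p = 0.0788) and above 0 on 4 of 4 arrays. Fpps, the farnesyl diphosphate synthase gene, was by its first probe at 0.39 (SE 0.11, n = 3, limma adjusted p = 0.113) and above 0 on 3 of 3. That probe was at 0.13 (SE 0.0931, n = 4) in the PTZ-ETH-NF arm and at -0.00112 (SE 0.18, n = 4) at day 10. The second Fpps probe had only 2 values in the PTZ-NF-NF arm, 0.13 and -0.058, too few for a test. With dye swaps not turned Mvd stood at -0.0575 and the first Fpps probe at 0.0905. Idi, which encodes isopentenyl diphosphate isomerase, had a second probe at 0.28 at day 10 (SE 0.14, n = 4, limma adjusted p = 0.785), at 0.13 in the PTZ-ETH-NF arm (SE 0.0957, n = 3) and at -0.14 in the PTZ-NF-NF arm (SE 0.0886, n = 4), with 1 sign on every array of each group. Its first probe stood at 0.0161, -0.0608 and -0.0369 in these groups, with both signs in each. These enzymes also serve the wider mevalonate pathway. jhamt, which encodes the juvenile hormone acid methyltransferase, was measured at day 10 only, at -0.26 (SE 0.23, n = 3, limma adjusted p = 0.856). Of reception and response, the amino acid transporter gene JhI-21 was at -0.25 (SE 0.0856, n = 4, limma adjusted p = 0.186) in the PTZ-NF-NF arm and at -0.0966 (SE 0.0767, n = 4) in the PTZ-ETH-NF arm. The coactivator gene tai had probes at 0.15 and -0.41 at day 10, neither past the threshold. No probe named here was for the receptor genes Met and gce or the target gene Kr-h1.

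**Figure D5:**
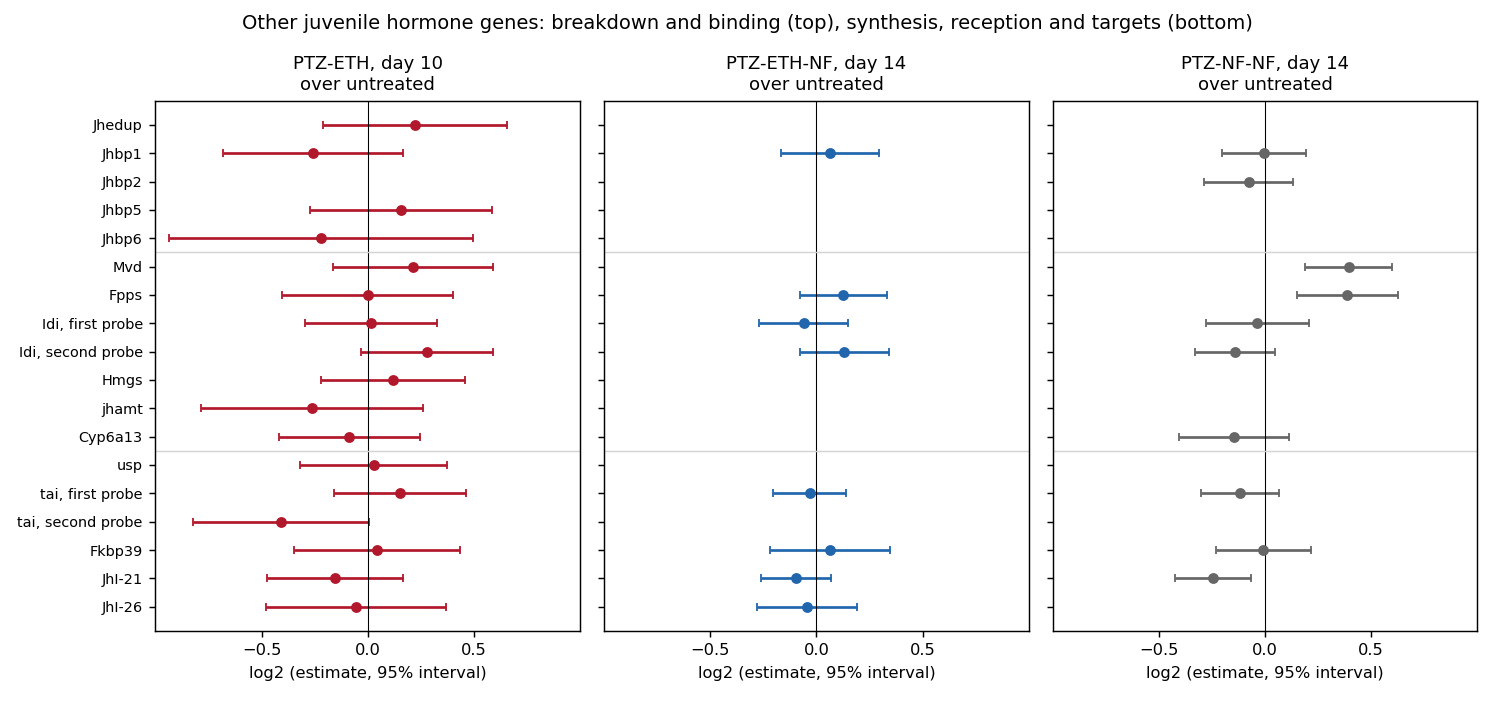
Estimated log2 ratios of treated over untreated heads with unadjusted 95% intervals from limma for 18 probes of 16 other juvenile hormone genes, by group (PTZ-ETH at day 10, PTZ-ETH-NF at day 14, PTZ-NF-NF at day 14). Grey lines part breakdown and binding, synthesis, and reception and response; a gene without a point had too few values. No estimate passed after adjustment, and Mvd and the first Fpps probe lie highest in the PTZ-NF-NF arm, both at 0.39.

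The genes whose ratios ran most like each member over the arrays were found by Pearson's r, among 3459 probes for Jheh2, 3196 for Jhbp13 and 2938 for Jhbp14 with at least 9 arrays in common. These values are a description: they pool day-10 and day-14 arrays, which stand apart, and probes of an array share its RNA pools and position effects. For the first Jheh2 probe the 5 highest were the dopamine transporter gene DAT (second probe, r = 0.89, n = 9 arrays, 1 of them at day 10), CG9360 (0.88, n = 12), CG6441 (0.87, n = 10), its own second probe (0.87, n = 12) and the glutathione S-transferase gene GstE3 (0.86, n = 11). Over the 8 day-14 arrays alone these were 0.66, 0.47, 0.82, 0.52 and 0.31. CG9360 averaged 1.14 ± 0.15 log2 at day 10 (SD, n = 4), -0.13 ± 0.22 in the PTZ-ETH-NF arm (SD, n = 4) and -0.15 ± 0.26 in the PTZ-NF-NF arm (SD, n = 4). GstE3 averaged 0.58 ± 0.13 (SD, n = 3), -0.0407 ± 0.14 (SD, n = 4) and -0.0640 ± 0.0681 (SD, n = 4) in the same order.

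For Jhbp13 the 5 highest were CG3088 (0.88, n = 10), the mitochondrial ribosomal protein gene mRpS6 (0.82, n = 9), the sorting nexin gene Snx1 (0.82, n = 9), bumpel (0.81, n = 10) and ScsbetaA, a succinyl-CoA synthetase subunit (0.80, n = 9). Over the day-14 arrays alone these were 0.93 (n = 7), 0.70 (n = 6), 0.93 (n = 5), 0.64 (n = 6) and 0.54 (n = 5). Jhbp14, by its second probe, stood 95th, at 0.63 (n = 10), and had 0.26 (n = 7) over the day-14 arrays alone. By its first probe Jhbp14 stood 800th, at 0.23 (n = 9). For the second Jhbp14 probe the 5 highest were CG1092 (0.96, n = 9), the acyl-CoA synthetase gene Acsf2 (0.94, n = 10), CG13243 (0.93, n = 10), CG15160 (0.93, n = 9) and CG17122 (0.93, n = 9). The r of CG1092 included 1 day-10 array, as did that of CG17122. Over the day-14 arrays alone the 5 were lower, at 0.76 (n = 8), 0.49 (n = 8), 0.59 (n = 8), 0.53 (n = 6) and 0.68 (n = 8) in the same order. Jheh2, by its first probe, ran against Jhbp13 over all arrays (-0.30, n = 11) and with it over the day-14 arrays alone (0.80, n = 7). Against the second Jhbp14 probe the same Jheh2 probe had -0.61 (n = 11) over all arrays and 0.11 (n = 8) over the day-14 arrays. The second Jheh2 probe had -0.63 (n = 11) against Jhbp13 over all arrays and 0.20 (n = 7) over the day-14 arrays, and -0.69 (n = 11) and -0.22 (n = 8) against the second Jhbp14 probe.

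Markers of tissues that a pool of heads can hold were read beside these results. Of 10 fat body markers 8 were tested at day 10 on 9 probes, 4 above and 5 below 0, with a median of -0.00425 log2 and none past the threshold; Lsp2 was at -0.68 (SE 0.18), the second apolpp probe at -0.50 (SE 0.14) and fit at -0.49 (SE 0.20), each with an unadjusted p under 0.05. The mean of the fat body list per array ran from -0.33 to 0.0878 at day 10, from -0.22 to 0.42 in the PTZ-ETH-NF arm and from -0.23 to 0.15 in the PTZ-NF-NF arm. In the PTZ-NF-NF arm 3 fat body probes were above 0 and 5 below. Of these Lsp2 (-0.32), FASN1 (-0.34) and Yp1 (0.36) had an unadjusted p under 0.05. The first apolpp probe (0.35) did so in the PTZ-ETH-NF arm, where 3 were above and 4 below, and Lsp2 (0.37) for the arm difference. None of them passed after adjustment. The 4 glia markers were all below 0 at day 10 (median -0.22): alrm at -0.39, Gs2 at -0.37, moody at -0.075 and wrapper at -0.028. At day 14 alrm stood at -0.31 in the PTZ-ETH-NF arm and -0.37 in the PTZ-NF-NF arm, below 0 on 4 of 4 arrays in each. There Gs2 was at -0.062 and -0.012 in the same order, and moody, tested in the PTZ-ETH-NF arm only, was at 0.11. None of these glia markers passed the threshold. An unadjusted p under 0.05 was seen for Gs2 at day 10, and for alrm at day 10 and in both day-14 arms. The lowest adjusted p was that of alrm in the PTZ-NF-NF arm (limma adjusted p = 0.0907). Of male abdomen markers, 2 genes were tested at day 10, Acp53Ea at 0.73 (SE 0.38) and Acp36DE at -0.0986 and 0.81 by 2 probes. The second Acp36DE probe had an unadjusted p under 0.05 and did not pass (limma adjusted p = 0.417). The list mean ran from -0.30 to 1.23 over the day-10 arrays, and none had enough values at day 14. Of 9 neuron and photoreceptor markers 3 were tested at day 10 (list mean per array from -0.73 to 0.43), of 5 muscle markers 3 (from -0.29 to -0.0188), with the flight muscle actin gene Act88F at -0.32 (SE 0.14, limma adjusted p = 0.775), and of 6 gut markers 1 (from -0.72 to 1.09); none passed. At day 14 the neuron list mean ran from -0.62 to 0.30 in the PTZ-ETH-NF arm and from -0.46 to 0.35 in the PTZ-NF-NF arm. The part of these tissues in the ratios of Jheh2, Jhbp13 and Jhbp14 was not tested.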

How the data were processed

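The values are the authors' deposited log2 ratios of Cy5 and Cy3 per spot for 12 spotted cDNA arrays. Per the series' design text, spots were quantified in GenePix Pro 6.0 and ratios were normalized in Acuity 4.0 and filtered on intensity, saturation, quality marks and uniformity. The log2 scale was read from the values: 100% of the 150 lowest were whole multiples of 0.001 as linear ratios (tolerance 0.05 of a step). At the ceiling of 16.61, 5 spot values were set to missing. Adjacent spots were averaged to 13824 probes, of which 5077 to 10433 had a value on an array; arrays were centred on their median, and dye swaps were turned in sign. Genes were named from the platform annotation and updated by gene ID (7447 of 7558 probes matched). No pair of arrays held over 0.289% identical spot values.

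limma 3.58.1 in R 4.3.3 (lmFit, eBayes) fitted a mean per group and a dye term. The 8 day-14 arrays shared a fit, and the 4 day-10 arrays had their own because their spread was wider. A probe needed 3 values in a group. Tests were 2-sided with Benjamini-Hochberg adjustment over all probes of a comparison and a threshold of 0.05. The p-values measure the spread between arrays, that is between pools of heads, and the number of arrays limits the precision. The script was tested on simulated data. Added changes were estimated close to their true size and mostly passed at day 14 but not at day 10. All 3 day-14 comparisons had more false calls than the threshold allows. These made up 14.2% of calls in the PTZ-ETH-NF arm, 6.88% in the PTZ-NF-NF arm and 7.47% for the arm difference. Same-numbered arrays of the day-14 arms correlated at 0.21 to 0.55 across probes in their deviations from arm means, but at 0.25 and -0.0181 within a dye orientation, which same-numbered arrays share; the replicate block, which takes the place of the dye term, was therefore run as an alternative.

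The genes and lists were chosen with earlier results of these data known. All 5 probes of the 3 genes are named; listed genes are named if past the threshold, or else up to 4 per list and comparison by smallest p; the 5 genes most like each member are named by r. The comparison of probes of 1 gene was added after seeing the data.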

Additional observations from a re-analysis of the deposited data

Results flagged for a closer look

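Jheh2 had ratios on opposite sides of 0 in different groups, though none of its day-14 ratios passed the test. By its first probe all 4 day-10 arrays were above 0 and all 4 arrays of the PTZ-ETH-NF arm below, and the mean at day 14 minus that at day 10 was -1.07 log2. By its second probe all 4 day-10 arrays were above 0 and all 4 arrays of the PTZ-NF-NF arm below, a difference of -1.19 log2. Neither difference was tested, because the day-10 ratios chose the gene. The share of all probes parted in this way was not counted, so nothing is read from either difference. With each print block centred, neither probe was below 0 on every array of its arm. The first stood at 0.035 on replicate 2 of the PTZ-ETH-NF arm and the second at 0.0585 on replicate 2 of the PTZ-NF-NF arm. With dye swaps not turned, the first probe stood at 0.25 in the PTZ-ETH-NF arm and -0.00975 at day 10, and the second at 0.13 in the PTZ-NF-NF arm and -0.28 at day 10. The other probe was not below 0 on every array of the same arm.

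The second probe of Idi was below 0 on all 4 arrays of the PTZ-NF-NF arm and above 0 on all 4 day-10 arrays, with a mean difference of -0.42 log2 that was not tested. It was also above 0 on all 3 arrays of the PTZ-ETH-NF arm that measured it, and the PTZ-NF-NF arm minus the PTZ-ETH-NF arm was -0.27. The difference between the day-14 arms did not pass (limma adjusted p = 0.911). Of all probes tested, 5.75% were above 0 on every day-10 array and 12.7% below 0 on every array of the PTZ-NF-NF arm. The share that met both was not counted, so nothing is read from the order of the groups. The first Idi probe, at 0.0161, -0.0608 and -0.0369 at day 10 and in the PTZ-ETH-NF and PTZ-NF-NF arms, had both signs in each group.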

How the results depend on the processing

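Most values rest on the reading of the dye swaps. Not turned, the day-10 means were -0.00975 and -0.28 for the Jheh2 probes, 0.11 for Jhbp13 and 0.0863 for the second Jhbp14 probe. In the PTZ-ETH-NF arm Jhbp13 was then 0.11 and the first Jheh2 probe 0.25; in the PTZ-NF-NF arm Jhbp13 was 0.34 (limma adjusted p = 0.0534), the second Jhbp14 probe 0.0381, the Jheh2 probes 0.38 and 0.13, and Mvd -0.0575; the arm differences of Jheh2 were -0.13 and -0.17. Scaled to a common spread, the day-10 means were -0.49 for Jhbp13, -0.51 for the second Jhbp14 probe, and 0.54 and 0.62 for the Jheh2 probes. With all 12 arrays in 1 fit the first Jhbp14 probe turned to -0.0769 in the PTZ-NF-NF arm. The arm difference of the first Jheh2 probe turned to -0.0709 with print-block centring and -0.0525 with the second spot only, and that of the second Jhbp14 probe to 0.0015 with the second spot only. Mvd passed with the PTZ-NF-NF arrays alone (limma adjusted p = 0.0199) and with a common spread (0.0486).

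Leaving out 1 array gave -0.34 to -0.25 for the first Jheh2 probe and -0.0873 to 0.0476 for the second in the PTZ-ETH-NF arm (above 0 only without its replicate 2), -0.48 to -0.24 for the first in the PTZ-NF-NF arm, and arm differences of -0.0441 to 0.19 for the first Jheh2 probe and -0.16 to 0.0394 for the second Jhbp14 probe. Across these fits the only member probe past the threshold was the first Jheh2 probe without replicate 2 of the PTZ-NF-NF arm.

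Counts of calls over all probes were not stable. Day 10 gave 1, and 1588 with dye swaps not turned, 21 with all 12 arrays, 15 without centring, and 0 without a dye term, with print-block centring, with a common spread or with either spot alone; leaving out 1 array gave 0 to 24 (24 without replicate 3, 11 without replicate 4, 0 without replicate 1 or 2). The PTZ-ETH-NF arm gave 0, and 128 with dye swaps not turned and 3 without centring. The PTZ-NF-NF arm gave 41, and 186 with dye swaps not turned, 275 alone, 83 with print-block centring, 85 with a common spread, 27 and 26 with 2 or 4 values required, 5 and 3 with the first or second spot only, and 0 without a dye term or with all 12 arrays; leaving out 1 array gave 0 to 62, with 0 without its replicate 3, 1 without its replicate 1, 2 without its replicate 4, and 62, 21 and 1 without replicates 1, 3 and 4 of the other arm. With the replicate number as a block that arm had 20 calls and the arm difference 1, none a member probe. It changed no other call reported. The depth of the spots is unknown, since the files hold ratios only.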
